A study of Mus musculus with 6 samples.

Results

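The mouse has a pair of neighbouring Tex19 genes, Tex19.1 and Tex19.2, which arose by duplication, and the array carried 1 probe set for each. These are all of the probe sets that the platform annotation assigns to either gene alone, 2 of 45101 on the array, and the pair makes up 2 of 18193 named genes. The genes were chosen by their higher signals after Dnmt1 knockdown on these same arrays, so the difference between knockdown and control is described here with no test. The cells were AtT-20, which derive from a corticotroph tumour of the mouse pituitary. In the siDNMT1 group they received 20 nM siRNA against Dnmt1 repeatedly over 8 days. In the siNT group they received 20 nM of a non-targeting siRNA on the same schedule. Every comparison therefore sets transfected cells against transfected cells of a single line, and no untransfected culture enters it. Each of 3 independent repeats gave 1 siDNMT1 and 1 siNT array, all of total RNA from whole cultures.

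Tex19.1 is expressed in germ cells, in pluripotent embryonic cells and in the placenta, and is silent in most adult tissues. Its protein restrains retrotransposons, is needed for normal meiosis in male mice and binds the ubiquitin ligase Ubr2. Tex19.2 has mainly been described in the testis and the placenta. Germline genes of this kind are known for promoters that carry DNA methylation in somatic cells, and Dnmt1 is the enzyme that copies that methylation to newly made strands.

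The 250 bases before the annotated start of each gene are shown because they are where promoter methylation would lie and because the paralogs differ there. They are RefSeq sequences of build GRCm38.p6, written 5′ to 3′ on the gene's own strand, with each CpG in capitals. The Tex19.1 window is chr11:121145893-121146142 on the plus strand and the Tex19.2 window is chr11:121118678-121118927 on the minus strand.
Tex19.1: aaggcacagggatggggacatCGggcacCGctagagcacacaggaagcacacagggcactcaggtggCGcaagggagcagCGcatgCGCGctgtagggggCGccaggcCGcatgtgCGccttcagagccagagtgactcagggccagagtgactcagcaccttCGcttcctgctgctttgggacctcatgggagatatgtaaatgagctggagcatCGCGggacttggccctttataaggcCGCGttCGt
Tex19.2: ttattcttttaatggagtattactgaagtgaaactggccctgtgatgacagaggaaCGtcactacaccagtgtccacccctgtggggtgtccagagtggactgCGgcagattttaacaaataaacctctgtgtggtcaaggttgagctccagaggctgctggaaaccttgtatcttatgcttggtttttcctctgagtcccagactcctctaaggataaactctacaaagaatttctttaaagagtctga
The genes point away from each other, with 27466 bases between their annotated starts and no annotated gene between them.

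The Tex19.1 window held 15 CpG dinucleotides, at an observed over expected CpG ratio of 0.643 and a GC content of 61.6%. The Tex19.2 window held 2 CpG, at a ratio of 0.163 and a GC content of 44.4%. Of 32851 mouse promoter windows of the same length, whose median was 6 CpG, 27.3% had at least as many CpG as Tex19.1 and 29.0% had no more than Tex19.2. The motif TCCCGC, bound by the germline gene repressor E2F6, was searched on both strands. The Tex19.1 window had 1 match, on the reverse strand as GCGGGA, starting 33 bases before the gene start, and the Tex19.2 window had none, while 16.9% of all windows had a match. The palindromic E-box CACGTG was in neither window and in 6.02% of all windows. The paralogs' promoters thus lie on opposite sides of the median CpG content. Whether this bears on the signals described next was not tested.

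**Figure D1:**
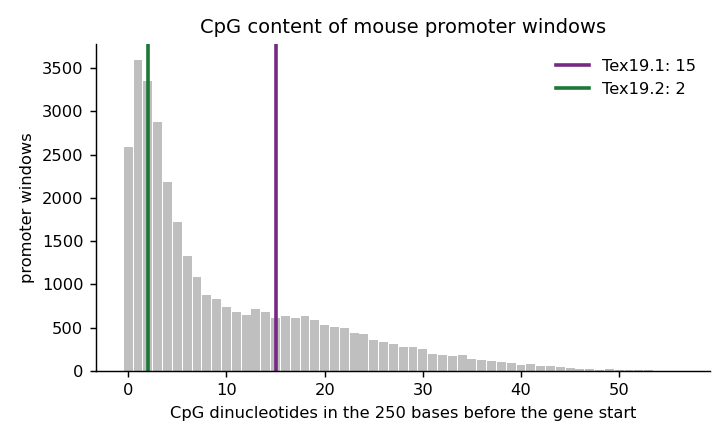
Number of RefSeq promoter windows (vertical axis) by count of CpG dinucleotides in the 250 bases before the gene start (horizontal axis), with the Tex19 genes as vertical lines. Tex19.1, at 15 CpG, lies above the median of 6 and Tex19.2, at 2 CpG, below it.

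The signals below are the deposited intensities after each array was scaled to a common median, in arbitrary units that cannot be compared between probe sets as amounts of RNA. Tex19.1 had scaled signals of 139, 606 and 84.4 in siDNMT1 repeats 1, 2 and 3, against 27.9, 35.1 and 38.7 in siNT repeats 1, 2 and 3. The siDNMT1 array of repeat 2 stood far above the other siDNMT1 arrays, the siNT arrays lay close together, and the groups did not overlap. Tex19.2 had 122, 347 and 85.9 in the siDNMT1 arrays of repeats 1 to 3, against 31.4, 42.9 and 38.8 in the siNT arrays. The order of the siDNMT1 arrays was the same as for Tex19.1, and again the lowest of them lay above the highest siNT array, by a factor of 2.0 for Tex19.2 and 2.18 for Tex19.1. Of all 27022 probe sets bright enough to test, 2.96% were higher in siDNMT1 with no overlap. Since this contrast chose the pair, nothing is read from both members being among them.

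**Figure D2:**
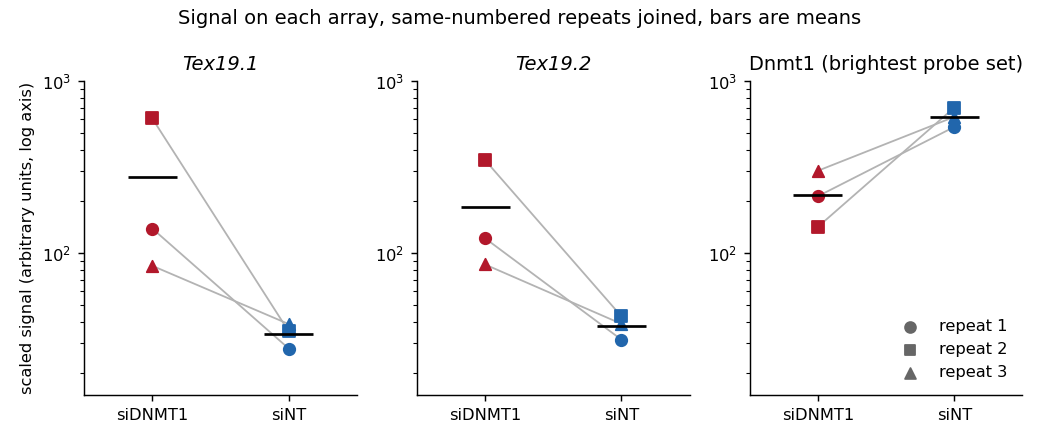
Scaled signal on a log axis for Tex19.1, Tex19.2 and the brightest Dnmt1 probe set, in siDNMT1 arrays (red, left) and siNT arrays (blue, right), with lines joining arrays of 1 repeat and bars at the group means (n = 3). The Tex19.1 and Tex19.2 siDNMT1 points spread from 84.4 to 606 and from 85.9 to 347, all above siNT, and Dnmt1 shows the opposite direction.

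Within repeats 1, 2 and 3 the Tex19.1 signal in siDNMT1 was 4.96, 17.2 and 2.18 times that of the paired siNT array. The same ratios for Tex19.2 were 3.89, 8.09 and 2.21. On the log2 scale, after a pseudocount of 5.29 was added to each signal, the differences were 2.12, 3.92 and 1.03 for Tex19.1 and 1.80, 2.87 and 1.05 for Tex19.2. In repeat 2 these placed Tex19.1 2nd and Tex19.2 7th among the 27022 tested probe sets by size of increase. In repeat 1 they stood at places 98 and 219, and in repeat 3, where both were smallest, at places 883 and 843.

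The size of the mean difference therefore rested heavily on 1 array. Tex19.1 averaged 276 ± 287 in siDNMT1 and 33.9 ± 5.49 in siNT (SD, n = 3 each), an 8.14-fold ratio of means, and Tex19.2 averaged 185 ± 141 in siDNMT1 and 37.7 ± 5.83 in siNT, a 4.91-fold ratio. Without the siDNMT1 array of repeat 2 the ratios were 3.29 for Tex19.1 and 2.76 for Tex19.2. The coefficient of variation was 104% in siDNMT1 and 16.2% in siNT for Tex19.1, and 76.5% in siDNMT1 and 15.5% in siNT for Tex19.2. Both arrays of repeat 2 were brighter than the others as deposited, with median signals of 36.3 in siDNMT1 and 33.2 in siNT against 19.8 to 24.0 on the other 4 arrays. The deposited Tex19.1 signals of that repeat were 868 in siDNMT1 and 46.0 in siNT, and those of Tex19.2 were 497 in siDNMT1 and 56.2 in siNT, so the large ratio of repeat 2 was present before scaling. The arrays measure whole cultures, so a few cells with much Tex19 RNA and many cells with a little cannot be told apart.

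Tex19.1 changed more than Tex19.2 in repeats 1 and 2, by 0.32 and 1.05 on the log2 scale, and differed from it by -0.02 in repeat 3. The mean gap of 0.45 was smaller than its spread between repeats (SD 0.55, n = 3). Both names end in _at, the Affymetrix label for probe sets designed against 1 transcript. Values of single probes are not used here, so how far either probe set also detects RNA of the paralog was not tested. The siNT signals of both genes, 27.9 to 42.9, were above the level of 16.8 used as a filter and above the pseudocount. Detection calls were not used here, and whether the siNT cells express either gene was not tested.

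The knockdown left different amounts of Dnmt1 transcript in the repeats, and the Tex19 differences followed the same order. The brightest Dnmt1 probe set had 214, 142 and 301 in siDNMT1 repeats 1 to 3, against 541, 701 and 619 in the siNT arrays. The signal left was 39.6%, 20.2% and 48.6% of the paired control. The other Dnmt1 probe sets gave the same order, with 27.8%, 17.2% and 44.6% left on one and 27.6%, 17.7% and 46.2% on the other. Dnmt1 had a mean log2 difference of -1.54 (SE 0.24, limma adjusted p = 0.151) and fell when the repeat was a term of the fit (SE 0.20, limma adjusted p = 0.0211). Both Tex19 genes were highest over control in repeat 2, where least Dnmt1 was left, intermediate in repeat 1 and lowest in repeat 3, where most was left. With 3 repeats no correlation was computed. Of all tested probe sets, 2726 (10.1%) were higher in siDNMT1 in all 3 repeats, and 364 of those 2726 (13.4%) had this order of repeats, so the order is not particular to the Tex19 genes. An increase of at least 1 log2 unit in every repeat was less common, with 15 probe sets, and 5 of those 15 had the order as well. Both Tex19 probe sets are among the 15 and among the 5, and since they were chosen by their increase nothing is read from this.

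**Figure D3:**
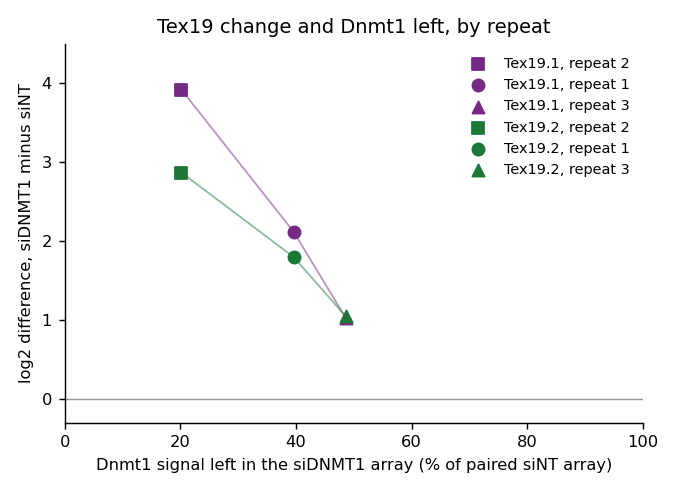
Log2 difference, siDNMT1 minus siNT, of Tex19.1 (purple) and Tex19.2 (green) in each repeat, against the Dnmt1 signal left in the siDNMT1 array of that repeat as a percentage of the paired siNT array (brightest probe set). Repeat 2, at 20.2% left, has the largest differences, 3.92 and 2.87, and repeat 3, at 48.6% left, the smallest, 1.03 and 1.05, where the points coincide.

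The genes whose pattern was nearest to that of each paralog were found by the root mean square distance over the 6 arrays, with every gene's log2 values taken relative to its siNT mean, among 13476 other tested genes. S100a6, a small calcium-binding protein gene, was nearest to both, at 0.38 from Tex19.1 and 0.36 from Tex19.2. The paralogs were second nearest to each other, at 0.41, against a median over all genes of 1.91 for Tex19.1 and 1.53 for Tex19.2. S100a6 had signals of 27.2, 80.8 and 13.7 in siDNMT1 and 5.18, 1.82 and 2.18 in siNT, so its control values were below the pseudocount and the size of its difference depends on that constant. S100a6, Tex101 and Gsdmd, with siNT means of 3.06, 4.47 and 6.42, passed the filter of 16.8 only through their siDNMT1 arrays, so their place among the nearest genes is a description that depends on which genes were let in.

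Next for Tex19.1 came Tex101, a gene of a testis surface glycoprotein, at a distance of 0.58. Tex101 had 9.81, 142 and 11.9 in siDNMT1 and 6.30, 3.08 and 4.03 in siNT, so that only the siDNMT1 array of repeat 2 was high. Gsdmd, of the pore-forming protein of pyroptosis, followed at 0.65 from Tex19.1 and came next for Tex19.2 after its paralog at 0.47. The flagellar gene Cfap65 came last of the 5 for Tex19.1 at 0.88 and after Gsdmd for Tex19.2 at 0.49, with 217, 324 and 184 in siDNMT1 and 72.7, 87.7 and 91.9 in siNT. Adh1, an alcohol dehydrogenase gene, was the last of the 5 for Tex19.2 at 0.56, with 84.0, 229 and 88.8 in siDNMT1 and 39.0, 64.5 and 49.4 in siNT. Gsdmd, Cfap65 and Adh1 were likewise highest in the siDNMT1 array of repeat 2, though Gsdmd spread less, with 46.2, 65.6 and 41.1 in siDNMT1 and 5.30, 6.81 and 7.15 in siNT.

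None of the other listed genes of germline genome defence and meiosis passed the test. Of 41 genes listed, 35 were on the array and 15 were bright enough to test, while the other 20 had mean scaled signals below the filter of 16.8, down to 1.44. With a threshold of 0.05 on the limma adjusted p, 0 members were called in either direction, with or without the repeat as a term. At an unadjusted limma p under 0.05 there was 1 member without the repeat and 3 with it. Over all tested probe sets limma called 0.0% without the repeat and 0.0851% with it, and 3.79% without it and 7.83% with it had an unadjusted p under 0.05. In the list 9 values were higher and 6 lower, and the median log2 difference was 0.04, against a median of -0.06 and 40.8% higher values over all tested probe sets.

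Tex101 had the highest difference of the tested members, with a mean log2 difference of 1.80 (SE 0.78, limma adjusted p = 1.0) and within-repeat differences of 0.38, 4.14 and 0.88. Its groups did not overlap. Tex101 had siNT signals below the filter and was tested only because of the siDNMT1 array of repeat 2, so neither its place in the list nor this separation is read as support. Gtsf1, of the piRNA pathway, which guides the silencing of transposons in germ cells, was at 0.88 (SE 0.52) on its brightest probe set and at 1.16 on the other, and Tdrd12, of the same pathway, at 0.82 (SE 0.52). The mRNA export gene Nxf2 was at -0.82 (SE 0.51). Tdrd12 and the other Gtsf1 probe set had siNT means of 14.8 and 12.1, below the filter, and passed it only through their siDNMT1 arrays. Nxf2, with a siDNMT1 mean of 13.2, passed it only through its siNT arrays. These values are therefore not read as support either. Among the dimmer members, Dazl, an RNA-binding germ cell gene, had 13.6, 25.0 and 6.76 in siDNMT1 and 23.7, 4.96 and 1.11 in siNT. Mael, a piRNA pathway gene, had 1.60, 0.595 and 2.30 in siDNMT1 and 1.21, 1.15 and 1.78 in siNT. The groups overlapped for Dazl and Mael. Of the 20 dim members, 2 were higher with no overlap and 0 lower. These were Sycp1, of the meiotic synaptonemal complex, with 21.1, 14.6 and 16.8 in siDNMT1 and 10.7, 13.4 and 7.96 in siNT, and Stk31, a testis kinase gene, with 7.34, 5.82 and 4.48 in siDNMT1 and 1.70, 2.77 and 0.789 in siNT. The share without overlap was 2.96% higher and 5.78% lower among tested probe sets, and was not computed for the 18015 dimmer ones. Nothing is read from the counts of dim members. Only 3 tested members of the list were higher in all 3 repeats, and 0 of these had the repeat order of the Tex19 genes. Over all such probe sets 13.4% had it, so 3 members are too few for a contrast.

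**Figure D4:**
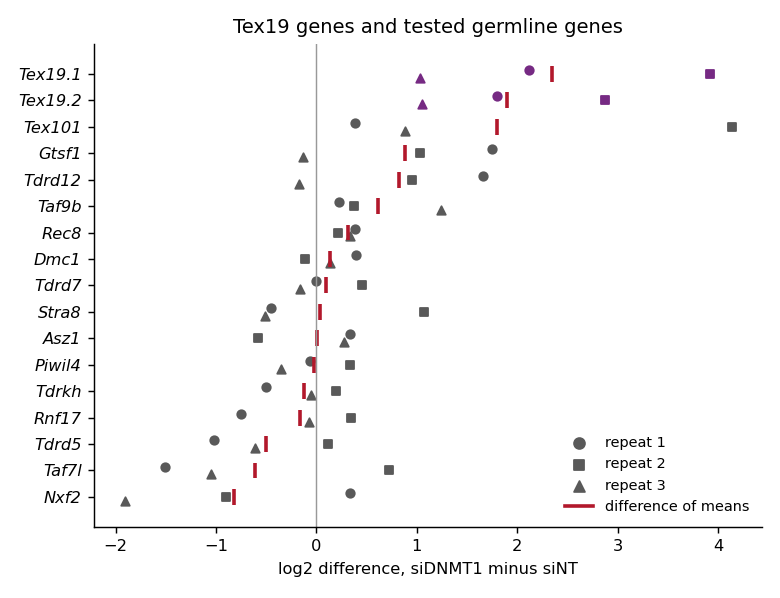
Log2 difference, siDNMT1 minus siNT, in each repeat (points) and between group means (red bars) for the Tex19 genes (purple) and the 15 tested genes of germline genome defence (grey). The Tex19 points all lie above 1, whereas most other genes scatter around 0 and Tex101 is high mainly in repeat 2.

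Many defining markers of the cell types in which Tex19.1 is known to be expressed gave low signals. Single defining markers and single genes of the wider lists were brighter. Of 6 germ cell markers, 1 was above the filter, and their summed scaled signal was 28.1 to 91.2 in siDNMT1 and 34.1 to 49.3 in siNT. The sum was highest in the siDNMT1 array of repeat 2, where Stra8 had 42.6 and Dazl 25.0. These genes reached 32.3 and 23.7 on siNT arrays. All 6 markers had a higher mean log2 value in siDNMT1, against 40.8% of tested probe sets, and the groups overlapped for each. Most were too dim to test, so nothing is read from this count. The part of the sum in the Tex19 differences was not tested. Pluripotent cell markers summed to 171 to 266 in siDNMT1 and 148 to 245 in siNT, over 7 of 7 markers on the array. Of these, 3 were above the filter, and Esrrb was the brightest, at 91.5 to 170 in siDNMT1 and 73.2 to 175 in siNT. Trophoblast markers summed to 95.2 to 102 in siDNMT1 and 103 to 108 in siNT, over 5 of 8 on the array. Of these, 2 were above the filter, among them Hand1 at 41.4 to 53.4 in siDNMT1 and 32.7 to 66.3 in siNT. No marker was listed at 0, but Pou5f1, the defining pluripotency factor, had at most 12.3 in siDNMT1 and 4.86 in siNT, and Ddx4, the germ cell helicase, at most 6.92 in siDNMT1 and 6.02 in siNT. The corticotroph markers Pomc and Tbx19 were bright, Pomc at 5576 to 10470 in siDNMT1 and 6958 to 10538 in siNT, and Tbx19 at 1437 to 1670 in siDNMT1 and 1375 to 1625 in siNT. Of 10 tested corticotroph genes limma called 0 in either fit, with 4 higher and 6 lower, against 40.8% higher values over all tested probe sets. Nr4a1 was at -0.62 (SE 0.20) with no overlap, as had 5.78% of all tested probe sets in the lower direction. Crhr1 was at -0.36 (SE 0.20), with -0.82 and no overlap on its other probe set. Neurod1 was at -0.35 (SE 0.20) and Pitx1 at 0.13 (SE 0.17). Of 10 tested pluripotency and 6 tested trophoblast genes, limma called none in either fit, and 0 had an unadjusted p under 0.05 in either. Over all tested probe sets limma called 0.0% without the repeat and 0.0851% with it. An unadjusted limma p under 0.05 was reached by 3.79% without it and 7.83% with it. Nothing is therefore read from these counts or from that of the corticotroph genes. The median log2 difference was 0.01 for the pluripotency list and -0.10 for the trophoblast list, whose brightest member Rhox5, a homeobox gene of the placenta, was at -0.08 (SE 0.16). In the pluripotency list Fgf4 was at -0.42 (SE 0.24), Lin28a at -0.21 (SE 0.24) and Utf1 at 0.32 (SE 0.40). Klf4 was at 0.23 (SE 0.29). In the trophoblast list Cdx2 was at -0.84 (SE 0.64), Plac1 at -0.44 (SE 0.37) and Ascl2 at 0.16 (SE 0.36). Cdx2 had a siDNMT1 mean of 10.8 and passed the filter only through siNT. Rhox5 signals were 4419 to 6324 in siDNMT1 and 5139 to 6427 in siNT, and those of Klf4, a factor also used by pluripotent cells, were 273 to 492 in siDNMT1 and 195 to 437 in siNT.

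The pathway of Ubr2, the binding partner of the Tex19.1 protein, showed no call. In the N-degron pathway Ubr proteins recognise the ends of proteins and mark them for destruction. Of its 10 tested genes limma called 0 in either fit. At an unadjusted limma p under 0.05 there were 0 without the repeat and 1, Wdyhv1, with it. Over all tested probe sets limma called 0.0% without the repeat and 0.0851% with it. An unadjusted limma p under 0.05 was reached by 3.79% without it and 7.83% with it, so nothing is read from these counts. The differences of the 10 genes ran from -0.24 to 0.39 with a median of -0.04. Wdyhv1, the amidase of the pathway also called Ntaq1, was at 0.39 (SE 0.20), the conjugating enzyme genes Ube2a and Ube2b at 0.21 (SE 0.15) and -0.23 (SE 0.16), and Ubr4 at -0.23 (SE 0.18). Other tested probe sets of these genes gave 0.29 for Wdyhv1, 0.01 for Ube2a, and -0.23 and 0.67 for Ube2b. Ubr2, the known binding partner, was on its brightest probe set at -0.24 (SE 0.20), with signals of 140, 116 and 119 in siDNMT1 and 183, 145 and 121 in siNT. Its other tested probe sets were at -0.05 and 0.37, so they did not share a direction.

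Genes that control retrotransposons outside the germline were likewise not called by limma in either fit, with 0 of 18 at an unadjusted p under 0.05 in either and a median log2 difference of -0.06, equal to that of all tested probe sets. Of all tested probe sets, 0.0% were called without the repeat and 0.0851% with it. At an unadjusted limma p under 0.05 the shares were 3.79% without it and 7.83% with it, so nothing is read from these counts. The chromatin remodeller gene Hells was at -0.43 (SE 0.28) on its brightest probe set, with -0.03 and 0.34 on its others, the histone methyltransferase gene Setdb1 at -0.22 (SE 0.18), Pphln1 of the HUSH silencing complex at -0.21 (SE 0.20) and Morc2a at -0.18 (SE 0.17).

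The genes beside the paralogs on chromosome 11 did not show a like increase. The 10 annotated genes on each side comprised 13 that the array measured and 9 bright enough to test, and of these 3 were higher and 6 lower in siDNMT1, the median log2 difference being -0.10. Over all tested probe sets 40.8% were higher and the median was -0.06. Within 5 places on the side of Tex19.2, Sectm1b, an immune cell ligand gene, was at 0.21 (SE 0.19), while Sectm1a and the lymphocyte gene Cd7 were too dim to test, with log2 differences of -0.89 and 0.01. The gene directly beside Tex19.2 on that side was not measured. Directly beside Tex19.1, the urotensin receptor gene Uts2r was too dim to test and at 0.29, so no directly adjacent gene was tested. Farther out but within 5 places, Ogfod3 was at -0.16 (SE 0.18), Hexdc, a hexosaminidase gene, at -0.08 (SE 0.22), and Cybc1 at 0.04 (SE 0.17). None of the tested genes within 5 places of a paralog had a difference of the size seen for the Tex19 genes. The Tex19 genes were chosen by their increase. Only 15 of 27022 tested probe sets rose by at least 1 log2 unit in every repeat. So few neighbours would be unlikely to include one, and nothing is read from this absence.

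Farther out, the gene 7 places beyond Tex19.1 went the other way. Foxk2, a forkhead transcription factor gene, had 223, 160 and 275 in siDNMT1 and 547, 648 and 539 in siNT on its brightest probe set, with no overlap, as had 5.78% of all tested probe sets in the lower direction. Its log2 difference was -1.41 (SE 0.21, limma adjusted p = 0.151), and it fell with the repeat as a term (SE 0.18, limma adjusted p = 0.0197), the 1 neighbour called, in a background of 0.0555% of probe sets called lower. Within repeats 1 to 3 it was at -1.28, -1.98 and -0.96, so the repeat with the least Dnmt1 left also had the lowest Foxk2. The share of lower probe sets with this order was not computed. Of its dimmer probe sets, a pair gave -1.13 and -1.17 and the other pair -0.09 and 0.17. Slc16a3, a lactate transporter gene 10 places before Tex19.2, had 57.9, 57.7 and 388 in siDNMT1 and 98.4, 267 and 507 in siNT, and its difference of -1.07 (SE 0.68) did not pass. Its within-repeat differences of -0.71, -2.12 and -0.38 had the same order as those of Foxk2.

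**Figure D5:**
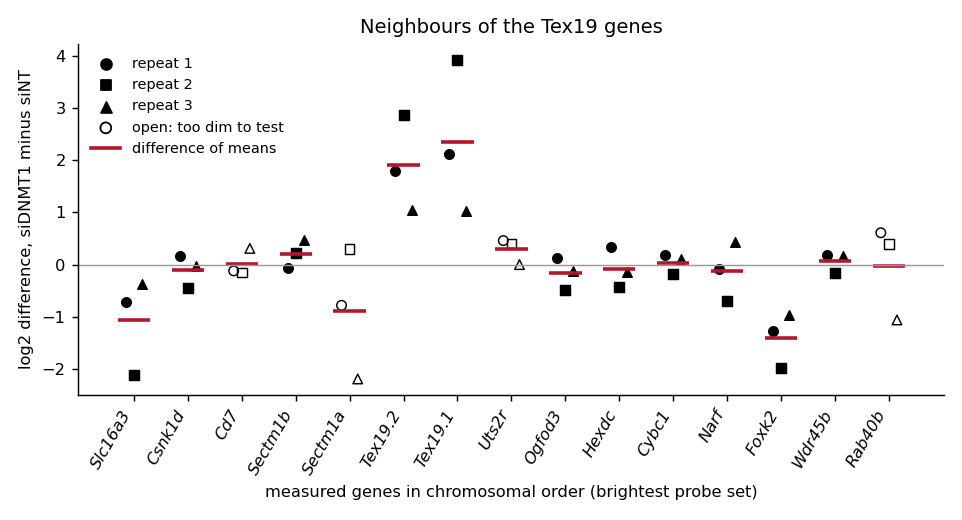
Log2 difference, siDNMT1 minus siNT, in each repeat (points, open where the probe set was too dim to test) and between group means (red bars) for the measured genes around the Tex19 pair, in chromosomal order and not to scale. Tex19.2 and Tex19.1 stand above their neighbours, with means of 1.90 and 2.35, and Foxk2 lies below, at -1.41.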

How the data were processed

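Total RNA of AtT-20 cells was measured on Affymetrix mouse arrays, 3 siDNMT1 and 3 siNT, which the labels describe as 3 independent repeats. The authors deposited 1 linear intensity per probe set and array, made with GCOS (Affymetrix operating software) per the submitters' processing notes; version and settings: not given in the sources used here. Precision is limited by the number of arrays.

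Of 45101 probe sets, 64 controls were left out. Each array was scaled to a common median log2 value, and tests used log2(signal + 5.29), the pseudocount being the 20th percentile of deposited values, which understates changes of dim genes. The 27022 probe sets at or above the 40th percentile of mean scaled signal (16.8) were tested, and 18015 dimmer ones were not. Symbols came from GEO's platform annotation, checked by gene ID against RefSeq (GRCm38.p6), which changed 0. There were 34945 probe sets with 1 symbol, 932 with several and 9160 with none. The brightest tested probe set stood for a gene.

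limma 3.58.1 in R 4.3.3 (lmFit, eBayes with a trend, two-sided, Benjamini-Hochberg over all tested probe sets, threshold 0.05) compared siDNMT1 with siNT without the repeat, and with it as a block. Same-numbered arrays deviated together from their group means (correlations 0.173, 0.231 and 0.257 across tested probe sets, others -0.179 to -0.0283), so the repeat numbers pair them. The fit was tested on simulated data of 27022 probe sets with 200 changed: at a log2 change of 2 it called 94.0% with and without the block, and at 1 it called 62.0% with and 43.0% without it, with 19 and 8 false calls in all. The simulated noise was normal, with spreads taken from the fit with the block, and each change was the same in every repeat. On the real arrays differences varied between repeats, and the fit without the block called 0. The simulated shares therefore do not give the power on the real arrays, and an absent call does not show an absent change. The genes named were the Tex19 genes and Dnmt1 with all probe sets, the 5 genes nearest each paralog, and measured neighbours within 5 genes. From each list the 4 members with the smallest unadjusted p were named, and any called in either fit. Ubr2, Mael, Dazl, Pou5f1, Ddx4, Pomc and Tbx19 are named besides these as known partners or markers. Sycp1, Stk31, Stra8, Elf5, Peg10, Esrrb and Hand1 are named after their values were seen, and Asz1 for its CpG count. The paralogs, the lists and the rules were chosen with earlier results of these data known. Python 3.11.15 served for promoter counts and figures. A protein comparison was planned and not run, since protein sequences are not used here.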

Additional observations from a re-analysis of the deposited data

How the results depend on the processing

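The Tex19 differences kept their direction in all 12 alternatives each, from 1.54 to 2.93 for Tex19.1 and from 1.34 to 2.31 for Tex19.2 on the log2 scale, against 2.35 and 1.90. Both ends were leave-one-out values: 1.54 and 1.34 without siDNMT1 repeat 2, and 2.93 and 2.31 without siDNMT1 repeat 3. The median of the within-repeat differences, the paired value, was 2.12 for Tex19.1 and 1.80 for Tex19.2. Scaling and pseudocount moved Tex19.1 between 2.10 and 2.48. The Dnmt1 difference of -1.54 was past the limma threshold with the replicate block (-1.54, adjusted p = 0.0211) and without siDNMT1 repeat 3 (-1.79, adjusted p = 0.0432), and ran from -1.79 to -1.26 when single arrays were left out. Over all probe sets limma called 0 without the block, 23 with the replicate block, 1 each with trimmed mean scaling, quantile normalization and the filter at the 60th percentile, 2 with no scaling, and 0 to 4 when single arrays were left out, with 4 without siDNMT1 repeat 3 and 2 without siDNMT1 repeat 1. Among the neighbours the block called 1, Foxk2, and the other alternatives 0; the block changed no call in the germline, N-degron, retrotransposon control, pluripotency or trophoblast lists, whose counts were 0 in all 15 alternatives. Trimmed mean scaling moved the median over all tested probe sets to 0.0019, against -0.0555. Differences of dim genes near the pseudocount, such as S100a6 and Tex101, depend on it, and 3 arrays a group limit every value.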

Other observations

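Among the trophoblast markers, Elf5, a transcription factor gene of the trophoblast and of mammary epithelium, was too dim for the test but did not overlap between groups, as was seen only after the values were examined. It had 33.3, 8.62 and 11.4 in siDNMT1 and 1.34, 3.15 and 1.38 in siNT, with log2 differences of 2.54, 0.72 and 1.32 in repeats 1 to 3. Its largest difference was in repeat 1, unlike that of the Tex19 genes, and its siNT signals lay below the pseudocount.

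The promoter windows of the listed germline genes varied widely in CpG count. The 48 windows of 36 genes held 0 to 40 CpG with a median of 15.5, against 15 in Tex19.1, 2 in Tex19.2 and a median of 6 over all windows. Of the 48 windows, 16 lay within 3 CpG of Tex19.1. Of all 48, 12 (25.0%) held TCCCGC on either strand. The Tex101 window had 14 CpG and no TCCCGC. Those of Gtsf1 and Tdrd12 had 7 CpG, and 5 and 6 CpG, and that of Asz1, at a log2 difference of 0.01, had 15. Whether CpG count bears on the differences was not tested.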
